A study of Mus musculus with 14 samples.

Results

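A set of 10 genes that mark the sinusoidal endothelium of the liver was followed in bulk liver RNA from mice of 2 genotypes given tunicamycin or vehicle. They are Stab1, Stab2, Lyve1, Clec4g, Kdr, Pecam1, Cdh5, Fcgr2b, Eng and Oit3, listed by their known cell type. The genes were chosen with earlier results of these data known. They are 10 of the 24411 genes named in the count files, and all 10 were among the 9644 genes with enough reads to be tested. All mice were male littermates of 5 to 7 months, and all carried Rbbp5 (flox/flox) alleles. The group labelled WT was Alb-CRE (-/-), and the group LKO, for RBBP5 LKO, spelt RRBP5 LKO on the samples, was Alb-CRE (+/-). The albumin promoter drives Cre in hepatocytes, so endothelial cells are not the cells in which Rbbp5, a subunit of the histone H3 lysine 4 methyltransferase complexes, is deleted. Tunicamycin, which blocks N-linked glycosylation and so stresses the endoplasmic reticulum, was injected intraperitoneally at 0.05 mg/kg in 500 µl of 3% DMSO in PBS, and vehicle mice received 3% DMSO in PBS. Livers were taken 8 h later, from WT mice (3 vehicle and 3 tunicamycin libraries) and LKO mice (4 vehicle and 4 tunicamycin libraries).

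Sinusoidal endothelial cells line the capillaries of the liver. They have open pores and no continuous basement membrane, and their surface receptors clear waste macromolecules, hyaluronan and immune complexes from the blood. They also send growth factor signals to hepatocytes and keep their own identity under vascular endothelial growth factor and bone morphogenetic protein signalling. Many of their receptors are glycoproteins.

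The scavenger and lectin receptors form the first group of genes. Stab1 (chromosome 14, 31139017 to 31168641, minus strand) and Stab2 (chromosome 10, 86841210 to 87007942, minus strand) encode stabilin-1 and stabilin-2, large scavenger receptors, of which stabilin-2 takes up hyaluronan. Lyve1 (chromosome 7, 110850607 to 110862953, minus strand) encodes a hyaluronan receptor that lymphatic endothelium also carries. Clec4g (chromosome 8, 3716071 to 3720651, minus strand) encodes a C-type lectin of sinusoidal endothelium. Fcgr2b (chromosome 1, 170960559 to 170976071, minus strand) encodes the inhibitory Fc receptor for IgG, which B cells and macrophages also carry. The signalling receptors are Kdr (chromosome 5, 75933270 to 75978428, minus strand), which encodes the main receptor for vascular endothelial growth factor A, and Eng (chromosome 2, 32646595 to 32682669, plus strand), which encodes endoglin, a co-receptor for bone morphogenetic proteins. Pecam1 (chromosome 11, 106654213 to 106715281, minus strand) and Cdh5 (chromosome 8, 104101625 to 104144502, plus strand) encode adhesion proteins of endothelial junctions, CD31 and VE-cadherin. Oit3 (chromosome 10, 59422960 to 59441779, minus strand) encodes a secreted protein with a zona pellucida domain. Positions are in coordinates of GRCm38 (mm10), and the reads counted were those on the exons of each gene, on its own strand. Genes on the opposite strand overlap Stab1, Stab2, Clec4g, Cdh5, Fcgr2b and Eng, and the count column used keeps their reads apart. Mir1954, Gm47291 and Gm26236 overlap Eng on its own strand, and strand does not separate their reads from those of Eng.

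The sequence of Fcgr2b bears on its counts, because part of it is identical to another gene. The longest run shared with Fcgr3, which encodes an activating Fc receptor, is 129 bases, from coding base 278 to 406 of 1023. It is shown because reads that lie wholly inside it cannot be assigned to either gene.
Fcgr2b and Fcgr3, shared run: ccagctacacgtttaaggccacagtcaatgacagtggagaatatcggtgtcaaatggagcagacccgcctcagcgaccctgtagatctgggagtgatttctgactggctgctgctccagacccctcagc
Of the 3495 stretches of 50 bases in the Fcgr2b transcript, 397 (11.4%) also occur in transcripts of other genes. The gene they are most often shared with is Fcgr3. No stretch of 50 bases of the other 9 genes occurred in a transcript of another gene. Values of Fcgr2b are therefore uncertain to the extent that the counting left out such reads. Fcgr3 was measured at 0.948 to 3.25 CPM (counts scaled to a common library size by TMM), below the lowest Fcgr2b value of 6.13 CPM.

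Promoter sequence was at hand for 6 of the 10 genes in the RefSeq table of GRCm38.p6. The 120 bases before the start are shown for 1 scavenger receptor, 1 lectin and the 2 signalling receptors, as examples from the groups of receptors. Capitals mark GGAA or its reverse complement TTCC, the core letters read by ETS factors, a family that includes known regulators of endothelial genes.
Stab2, chr10:87007943-87008062, minus strand: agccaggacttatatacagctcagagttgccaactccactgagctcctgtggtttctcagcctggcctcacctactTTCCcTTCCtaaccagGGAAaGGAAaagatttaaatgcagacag
Clec4g, chr8:3720652-3720771, minus strand: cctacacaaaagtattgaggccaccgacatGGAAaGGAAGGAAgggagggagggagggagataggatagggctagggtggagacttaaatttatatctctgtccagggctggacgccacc
Kdr, chr5:75978456-75978575, minus strand: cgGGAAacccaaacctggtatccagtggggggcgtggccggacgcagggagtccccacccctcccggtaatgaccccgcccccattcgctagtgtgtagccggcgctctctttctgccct
Eng, chr2:32646475-32646594, plus strand: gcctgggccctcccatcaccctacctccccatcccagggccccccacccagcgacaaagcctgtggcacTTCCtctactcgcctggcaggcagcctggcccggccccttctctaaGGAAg
Stab2 held 4 copies, Clec4g 3, Kdr 1 and Eng 2, searched on both strands. All 6 genes with an entry held GGAA, as did 73.4% of all 32851 promoters in the same window. GATA, the core letters read by GATA factors such as the sinusoidal regulator GATA4, was in 3 of the 6, against 29.5% of all promoters. These matches describe letters only.

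Reads on genes numbered 6507018 to 13519421 per library, and 72.5 to 75.5% of them lay on Rn45s, the ribosomal RNA precursor, which left 1704479 to 3551398 reads for all other genes. Libraries 3 and 4 of the LKO vehicle group differed by about the sampling noise (chi-square per degree of freedom 1.12, against 3.40 to 25.8 for the 17 other pairs within groups). Their reads were summed into 1 sample, called LKO vehicle 3+4, which left 13 samples. The labels do not say that each library came from its own mouse, so p-values measure the spread between these samples. Rbbp5 itself stood at 4.07 to 6.41 CPM in the 6 WT samples and at 1.90 to 4.15 CPM in the 7 LKO samples, and LKO vehicle 1, at 4.15 CPM, lay inside the WT range. WT tunicamycin 3 stood apart from its group, with a chi-square per degree of freedom of 25.8 and 25.7 against WT tunicamycin 1 and 2, which gave 6.21 against each other. It was near the vehicle samples where its group mates were high, for example in Trf, the transferrin gene, at 1907 CPM against 4224 and 5778 CPM in its group and 1838 to 1971 CPM in WT vehicle. For the 10 genes, the contrasts that use WT tunicamycin are therefore given with and without it. Levels, and the counts of the other lists, are given with it unless stated. Between 13 and 478 reads stood behind each value of the 10 endothelial genes, so a single value of the lowest gene, Lyve1, carries a large counting error.

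All 10 markers were detected in all 13 samples, but they define the set, so their detection is no check of its label. These values do not tell sinusoidal from other vascular endothelium. The lymphatic marker Ccl21a was at 0 in all samples and Pdpn was at 0 in 8 of them, with a highest value of 0.326 CPM, while Prox1, which hepatocytes also express, stood at 18.4 to 54.6 CPM and Flt4, which sinusoidal endothelium also expresses, at up to 12.6 CPM in all samples. In bulk tissue, fewer endothelial cells and less RNA per cell cannot be told apart.

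The summed level of the 10 genes had means of 107 to 110.3 CPM in the 4 groups, and the ranges of the groups overlapped. It was 108 ± 6.85 CPM (SD, n = 3) in WT vehicle and 110.0 ± 0.0954 CPM (n = 3) in WT tunicamycin. It was 107 ± 25.2 CPM (n = 3) in LKO vehicle and 110.3 ± 10.4 CPM (n = 4) in LKO tunicamycin. The LKO vehicle samples spread widest, from 88.3 to 135 CPM, and took in the range of each other group. No gene of the 10 was called changed in any comparison by edgeR's quasi-likelihood test at a Benjamini-Hochberg adjusted p under 0.05. DESeq2 called 0 of 10 in each as well, but it gave Clec4g no adjusted p for tunicamycin in LKO. Lyve1, Pecam1 and Oit3 in that comparison, and Lyve1 for tunicamycin in WT, each also lacked an adjusted p in 1 alternative fit. A gene without an adjusted p could not be called in that fit, so these counts of 0 do not cover all 10 genes in every fit.

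**Figure D1:**
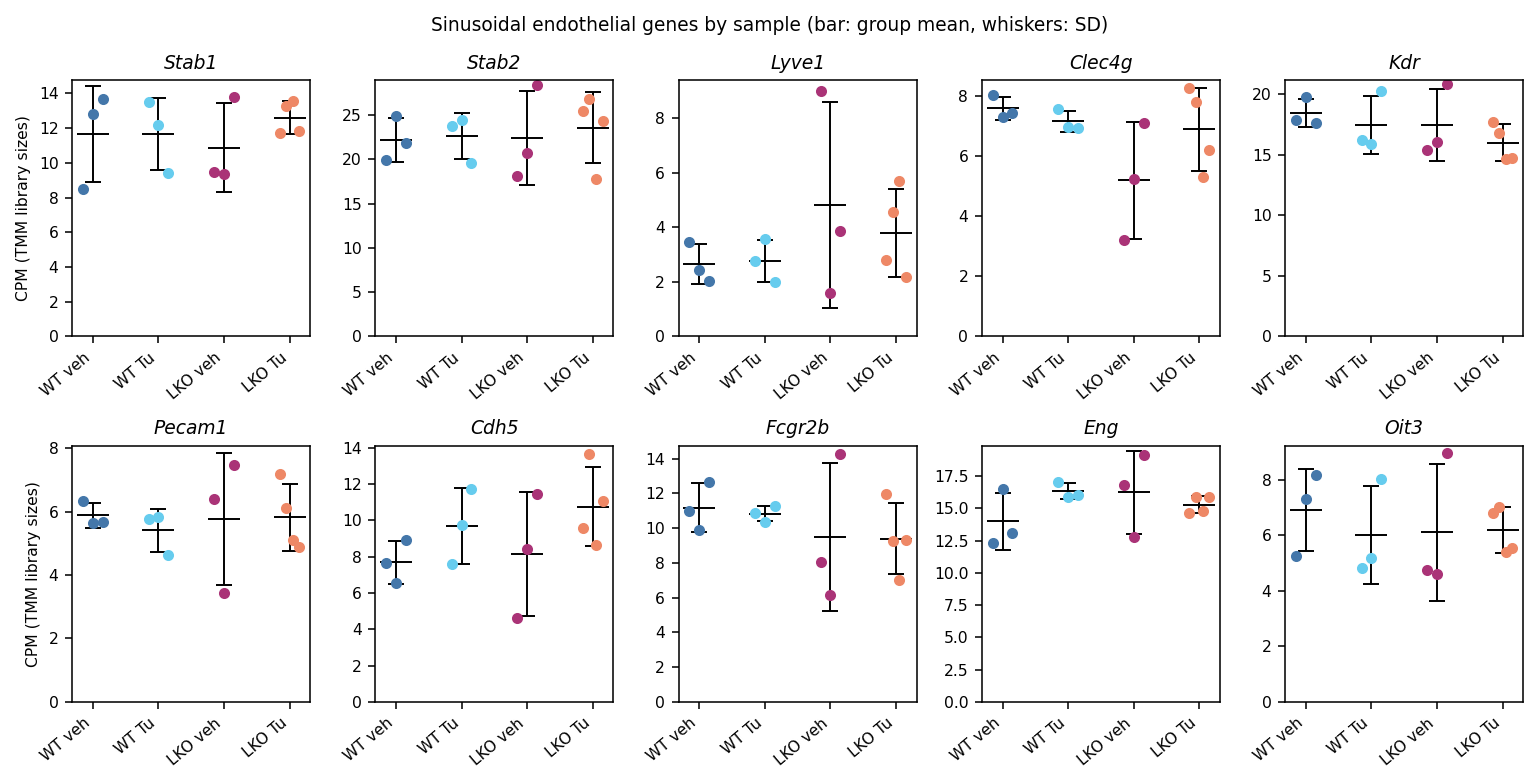
Level of each of the 10 genes (CPM, vertical axis from 0) in every sample of the 4 groups; points are samples, bars are group means and whiskers are SD. The LKO vehicle points spread widest for most genes, and LKO vehicle 1 is the single high Lyve1 point at 9.00 CPM.

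Stab1 and Stab2 varied least of the scavenger and lectin receptors, with biological coefficients of variation within groups of 0.148 and 0.149. For Stab2, WT vehicle samples 1 to 3 held 19.9, 24.9 and 21.9 CPM, and WT tunicamycin samples 23.8, 24.5 and 19.6 CPM. LKO vehicle samples 1, 2 and 3+4 held 18.1, 20.7 and 28.4 CPM, and LKO tunicamycin samples 1 to 4 held 25.4, 26.8, 17.7 and 24.3 CPM. All 4 groups overlapped, and the highest value was 1.60 times the lowest. All groups overlapped for Stab1 too, with means of 11.7 ± 2.78, 11.7 ± 2.08, 10.9 ± 2.55 and 12.6 ± 0.951 CPM in WT (vehicle, tunicamycin) and LKO (vehicle, tunicamycin).

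Clec4g was tight in WT and scattered in LKO. It stood at 8.02, 7.30 and 7.43 CPM in WT vehicle and at 7.57, 6.97 and 6.95 CPM in WT tunicamycin. It stood at 3.20, 5.26 and 7.12 CPM in LKO vehicle and at 8.26, 7.81, 5.30 and 6.19 CPM in LKO tunicamycin. All 3 LKO vehicle samples lay below all 3 WT vehicle samples, while the other groups overlapped.

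Lyve1, the hyaluronan receptor, was the least abundant in CPM and the most variable of the 10. It stood at 3.47, 2.43 and 2.04 CPM in WT vehicle and at 2.75, 3.57 and 2.01 CPM in WT tunicamycin. It stood at 9.00, 1.61 and 3.86 CPM in LKO vehicle and at 2.80, 4.55, 5.71 and 2.17 CPM in LKO tunicamycin. LKO vehicle 1 was the highest of all samples, with 76 reads, and LKO vehicle 2 the lowest, so this group alone spanned the whole range. Its coefficient of variation was 0.373, at the 98.2 percentile of all genes tested, against a common value of 0.155.

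Fcgr2b had means of 11.2 ± 1.42 CPM in WT vehicle, 10.8 ± 0.447 CPM in WT tunicamycin, 9.50 ± 4.27 CPM in LKO vehicle and 9.40 ± 2.03 CPM in LKO tunicamycin. Its extremes, 6.13 and 14.3 CPM, were both LKO vehicle samples.

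The signalling receptors varied least. Kdr held 17.8, 19.7 and 17.6 CPM in WT vehicle, 16.2, 15.9 and 20.2 CPM in WT tunicamycin, 15.4, 16.1 and 20.8 CPM in LKO vehicle, and 17.7, 16.8, 14.7 and 14.8 CPM in LKO tunicamycin. Its highest value was 1.42 times its lowest, and its coefficient of variation of 0.112 was the smallest of the 10. Eng held 12.3, 16.5 and 13.1 CPM in WT vehicle, 17.1, 15.9 and 16.1 CPM in WT tunicamycin, 16.8, 12.8 and 19.2 CPM in LKO vehicle, and 14.7, 15.9, 14.8 and 15.9 CPM in LKO tunicamycin. Its coefficient of variation was 0.118. The 4 LKO tunicamycin samples of Eng lay just below the 3 WT tunicamycin samples, with the nearest values of both groups at 15.9 CPM.

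The junction genes differed from each other in spread. Cdh5 held 7.66, 6.54 and 8.89 CPM in WT vehicle, 7.57, 9.73 and 11.7 CPM in WT tunicamycin, 4.62, 8.40 and 11.5 CPM in LKO vehicle, and 9.59, 13.7, 8.66 and 11.1 CPM in LKO tunicamycin. Its mean was above vehicle after tunicamycin in both genotypes, and the groups overlapped in both. Pecam1 had group means between 5.42 and 5.89 CPM, and its lowest value, 3.43 CPM, was that of LKO vehicle 2. Oit3 had group means between 6.01 and 6.91 CPM, and its highest value, 8.96 CPM, was that of LKO vehicle 3+4.

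The spread of the LKO vehicle group followed single samples across many of the genes. LKO vehicle 3+4 was the highest of all 13 samples for 7 of the 10 genes. LKO vehicle 2 was the lowest for 4 genes and above the median of the samples for 0 of 10. LKO vehicle 1 was the lowest of all for Clec4g, at 3.20 CPM against 5.26 to 8.26 CPM elsewhere, and for Cdh5, at 4.62 CPM against 6.54 to 13.7 CPM. It was the highest for Lyve1, at 9.00 CPM against 1.61 to 5.71 CPM elsewhere, and its level of Rbbp5 lay inside the WT range. LKO vehicle 2 and 3+4 were also the 2 samples with the most reads, and the part of depth in these extremes was not tested.

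**Figure D2:**
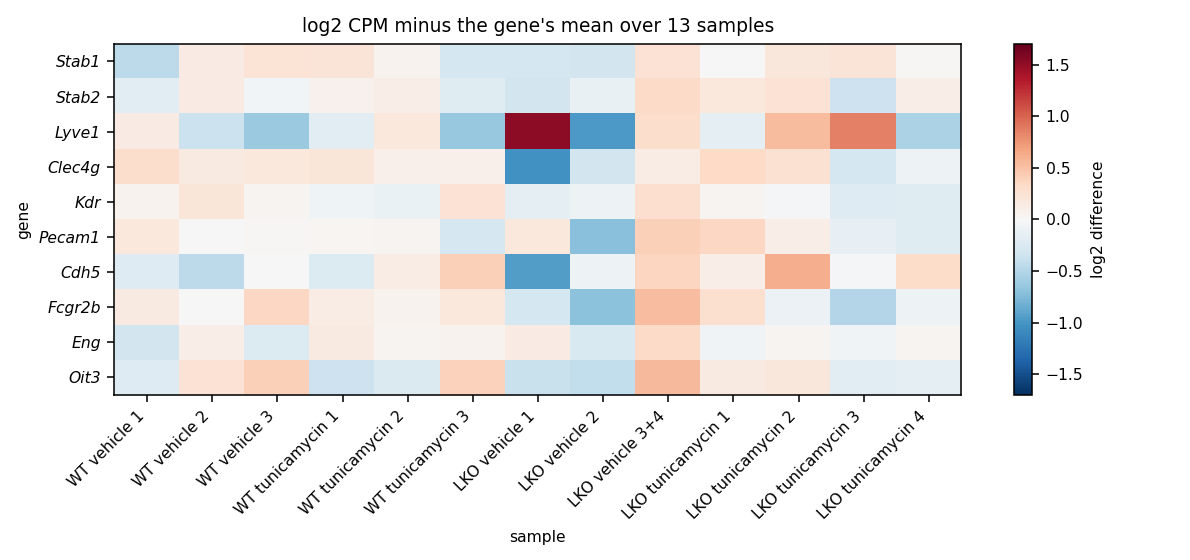
Difference of log2 CPM from the gene's own mean over the 13 samples (colour, log2 units), with the 10 genes as rows and the samples as columns. LKO vehicle 3+4 is the highest sample for 7 of the 10 genes, LKO vehicle 2 is above the median for 0 of 10, and LKO vehicle 1 is high for Lyve1 and low for Clec4g and Cdh5.

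The first comparison asked whether tunicamycin changed these genes in WT livers. No gene of the 10 passed, where 0.363% of all genes tested were called in either direction. Log2 fold changes ran from -0.20 to 0.33, 5 above and 5 below 0, with a median of -0.01 beside 0.01 for all genes. Cdh5 had the largest difference, 0.33 ± 0.27 (SE; adjusted p = 0.624, edgeR), from 7.70 ± 1.18 to 9.68 ± 2.08 CPM, and 0.16 without WT tunicamycin 3. Eng differed by 0.22 ± 0.16 (adjusted p = 0.540, edgeR), with 0.12 without WT vehicle 1, 0.35 without WT vehicle 2 and 0.04 under total count scaling. Oit3 differed by -0.20 ± 0.28 (adjusted p = 0.805, edgeR), with -0.05 without WT tunicamycin 1 and -0.46 without WT tunicamycin 3. Stab1, Stab2, Lyve1, Clec4g, Kdr, Pecam1 and Fcgr2b lay between -0.12 and 0.05. At an unadjusted p under 0.05 the count was 0 of 10, where 14.8% of all genes passed. In 0 of 10 genes did the groups stand clear of each other, where 17.3% of all genes did. Without WT tunicamycin 3, 0 of 10 genes passed by edgeR either, adjusted or unadjusted, while the share called over all genes was 6.19% (615 genes in place of 35). Log2 fold changes then ran from -0.46 to 0.24, with a median of 0.05. Without WT tunicamycin 1, 0 genes were called over all genes.

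The second comparison made the same contrast in LKO livers, and again no gene passed, where 0.0311% of all genes were called. Log2 fold changes ran from -0.23 to 0.34, 5 above and 5 below 0, with a median of -0.01. Clec4g differed by 0.34 ± 0.21 (adjusted p = 0.556, edgeR), from 5.19 ± 1.96 to 6.89 ± 1.38 CPM, and by 0.13 without LKO vehicle 1 and 0.64 without LKO vehicle 3+4. Cdh5 differed by 0.34 ± 0.23 (adjusted p = 0.604, edgeR), from 8.16 ± 3.42 to 10.7 ± 2.18 CPM, with 0.10 without LKO vehicle 1 and 0.67 without LKO vehicle 3+4. Stab1 differed by 0.20 ± 0.18 (adjusted p = 0.718, edgeR), with 0.08 without LKO vehicle 2 and 0.42 without LKO vehicle 3+4. Stab2, Lyve1, Kdr, Pecam1, Fcgr2b, Eng and Oit3 lay between -0.23 and 0.06. The count was 0 of 10 at an unadjusted p under 0.05, where 12.2% of all genes passed, and 0 of 10 without overlap, where 11.6% did. The balance of signs rested on LKO vehicle 3+4: without it, 9 of 10 were above 0 with a median of 0.34, 4 (Stab1, Clec4g, Cdh5 and Fcgr2b) had an unadjusted p under 0.05, where 8.2% of all genes did, and 0 were called by edgeR.

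The third comparison set LKO against WT livers with vehicle, which shows the genes without the drug. No gene passed, where 0.0415% of all genes were called. Log2 fold changes ran from -0.49 to 0.74, 4 above and 6 below 0, with a median of -0.05. Clec4g was at 5.19 ± 1.96 CPM in LKO against 7.59 ± 0.383 CPM in WT, a log2 difference of -0.49 ± 0.22 with a 95% interval from -0.96 to -0.02 (unadjusted p = 0.0411, adjusted p = 0.583, edgeR). It was the only gene of the 10 with an unadjusted p under 0.05, which 8.15% of all genes had, and the only one whose groups did not overlap, which 15.1% of all genes showed. Without LKO vehicle 1 its difference was -0.30, and without LKO vehicle 3+4 it was -0.80 with an adjusted p of 0.158 by edgeR, the lowest of any setting in this comparison. Lyve1 differed by 0.74 ± 0.49 (adjusted p = 0.727, edgeR), by 0.05 without LKO vehicle 1 and by 1.18 without LKO vehicle 2. Eng differed by 0.22 ± 0.15 (adjusted p = 0.741, edgeR), with 0.07 without LKO vehicle 3+4 and 0.37 without LKO vehicle 2. Stab1, Stab2, Kdr, Pecam1, Cdh5, Fcgr2b and Oit3 lay between -0.21 and 0.14. Without LKO vehicle 3+4 the median was -0.26, with 2 of 10 above 0, and 3 genes (Clec4g, Fcgr2b and Oit3) had an unadjusted p under 0.05, where 11.7% of all genes did. Without LKO vehicle 2 the median was 0.07, with 8 of 10 above 0. In that fit 2 genes (Eng and Lyve1) had an unadjusted p under 0.05, where 6.22% of all genes did. In either case 0 of 10 were called by edgeR.

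The fourth comparison set LKO against WT livers after tunicamycin. No gene of the 10 passed, where 0.861% of all genes were called. Log2 fold changes ran from -0.22 to 0.47, 6 above and 4 below 0, with a median of 0.05 beside -0.01 for all genes. Lyve1 differed by 0.47 ± 0.50 (adjusted p = 0.702, edgeR) and Fcgr2b by -0.22 ± 0.24 (adjusted p = 0.722, edgeR). Without LKO tunicamycin 3 these were 0.18 and -0.09. Kdr differed by -0.13 ± 0.14 (adjusted p = 0.702, edgeR). The sign of the Kdr difference turned under another scaling and on the FPKM scale, and it was -0.01 without WT tunicamycin 3. Stab1, Stab2, Clec4g, Pecam1, Cdh5, Eng and Oit3 lay between -0.10 and 0.15. The count at an unadjusted p under 0.05 was 0 of 10, where 15.8% of all genes passed, and the groups of 1 gene, Eng, did not overlap, where 12.9% of all genes did not. The sign of the Eng difference also turned under another scaling. Without WT tunicamycin 3, the 10 ran from -0.19 to 0.31 with a median of -0.02, and 0 were called, where 0.644% of all genes were. Without WT tunicamycin 1, 0 genes were called over all genes, and without WT tunicamycin 2, 1.84%.

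The difference between the 2 tunicamycin effects was tested as an interaction. It passed for 0 of 10 genes, as for 0% of all genes, and for 0 of 10 at an unadjusted p under 0.05, where 4.91% of all genes passed. The largest were Clec4g at 0.42 ± 0.31 (adjusted p = 0.982, edgeR) and Eng at -0.31 ± 0.21 (adjusted p = 0.982, edgeR). Clec4g was at 0.23 without LKO vehicle 1 and 0.72 without LKO vehicle 3+4, and Eng at -0.16 without LKO vehicle 3+4 and -0.47 without LKO vehicle 2. Stab1, which had the next smallest p but not the next largest difference, was at 0.18 ± 0.27 (adjusted p = 0.999, edgeR). It was at 0.05 without WT tunicamycin 3 and 0.41 without LKO vehicle 3+4. Stab2, Lyve1, Kdr, Pecam1, Cdh5, Fcgr2b and Oit3 lay between -0.27 and 0.17. In all, 6 of the 10 were above 0, as were 46.5% of all genes. Without WT tunicamycin 3, 7 of 10 were above 0 and 0 of 10 passed, while 2 genes passed over all genes. Without LKO vehicle 3+4, 8 of 10 were above 0, with a median of 0.37. Clec4g then had an unadjusted p under 0.05 by edgeR, where 5.61% of all genes did. Without LKO vehicle 2, 3 of 10 were above 0, with a median of -0.08. Eng then had an unadjusted p under 0.05 by edgeR, where 4.94% of all genes did. In both fits 0 of 10 were called.

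A p above the threshold does not show equal levels, so the 95% intervals give the changes that these samples still allow. In each of the 4 comparisons between groups, the interval lay inside a 2-fold change in either direction for 9 of the 10 genes, and Lyve1 was the exception each time. For Stab1, Stab2, Kdr and Eng it lay inside a 1.5-fold change in all 4 comparisons, and for Kdr it did so with each of the 13 samples left out in turn. Without LKO vehicle 3+4 the interval lay inside 2-fold for 7 genes for tunicamycin in LKO and for 6 genes for LKO against WT with vehicle. The interval of Lyve1 for LKO against WT with vehicle ran from -0.30 to 1.78 on the log2 scale. For the interaction, the interval lay inside 2-fold for 8 genes and inside 1.5-fold for 2. Without LKO vehicle 3+4, the interval for the interaction lay inside 2-fold for only 4 genes.

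**Figure D3:**
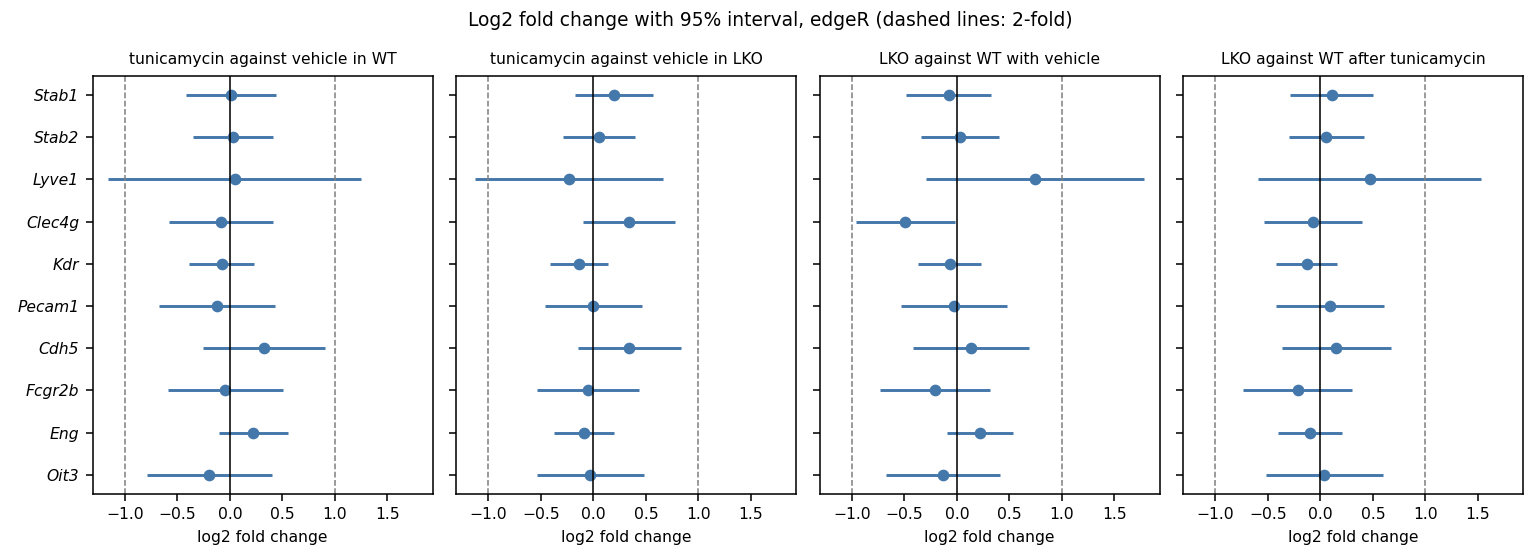
Log2 fold change (horizontal axis) of each gene with its 95% interval from edgeR, 1 panel per comparison; dashed lines mark a 2-fold change. All intervals but that of Clec4g for LKO against WT with vehicle, from -0.96 to -0.02, cross 0, and only those of Lyve1 pass the dashed lines.

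Levels can be compared between genes only per length, for which the deposited FPKM values (fragments scaled by transcript length and depth) served. The FPKM values of LKO vehicle 2 summed to 99386, against 156509 to 169701 in each other library, so they may be on another scale. They enter the means given here and the 3 limma fits on FPKM, and their part in these was not tested. Over the 13 samples Fcgr2b had the highest level at 3.15 ± 0.672 FPKM (SD), followed by Clec4g at 2.14 ± 0.491 and Eng at 1.94 ± 0.304 FPKM. Oit3, Cdh5 and Kdr followed at 1.07 ± 0.237, 1.02 ± 0.271 and 1.01 ± 0.124 FPKM, and their order was not clear, since Oit3 was above Cdh5 in 7 of 13 samples and Cdh5 above Kdr in 7 of 13. Pecam1 at 0.708 ± 0.156, Lyve1 at 0.649 ± 0.377 and Stab2 at 0.636 ± 0.128 FPKM came next, with Lyve1 above Stab2 in 5 of 13 samples. Stab1 was lowest at 0.350 ± 0.0758 FPKM and below Stab2 in 13 of 13 samples. The order depended on how length was counted. On reads per kilobase of all annotated exons, Eng came first, before Clec4g and Stab2, while Fcgr2b had rank 7 and Pecam1 was last.

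The genes went up and down together from sample to sample, apart from Lyve1. Of the 45 pairs, 37 had a Pearson correlation of log2 CPM above 0 over the 13 samples, with a median of 0.34, and 0.46 after group means were taken out. Fcgr2b, Pecam1, Stab2 and Oit3 followed the mean of the other genes most closely, with r of 0.68, 0.69, 0.62 and 0.62. Lyve1 had r of -0.20 with that mean, and only 3 of its 9 pairs were above 0, with a median of -0.23. That median became 0.08 without LKO vehicle 1, where Lyve1 is high while Clec4g and Cdh5 are low. Of the 36 pairs without Lyve1, 34 were above 0, with a median of 0.40. Clec4g with Eng was at -0.11 and Pecam1 with Cdh5 at -0.04. These values are descriptions of 13 samples that share 1 scaling per library. No value for pairs of other genes is set beside them, and the part of LKO vehicle 2 and 3+4 in them was not tested.

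Among the 5989 genes whose mean log2 CPM reached 2, those most like the mean profile of the 10 were Serinc3 (r = 0.848), Aqp1 (r = 0.840), Hacd2 (r = 0.826), Itga9 (r = 0.789) and F8 (r = 0.789), over 13 samples. Aqp1, which encodes a water channel, and F8, which encodes coagulation factor VIII, are also on the list of other liver endothelial genes.

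That list holds 35 further endothelial genes, of which 25 were tested, and 0 were called in any of the 5 contrasts. After tunicamycin in WT, 6 of the 25 had a log2 fold change above 0, with a median of -0.14, against 51.7% of all genes and a median of 0.01. The corresponding counts were 11 of 25 in LKO after tunicamycin, 10 of 25 for LKO against WT with vehicle and 9 of 25 after tunicamycin, with medians of -0.08, -0.09 and -0.07. The most abundant tested were Ptprb, a receptor phosphatase of endothelium, and Mrc1, the mannose receptor through which sinusoidal cells clear glycoproteins. Ptprb was at 64.8 ± 2.81, 55.9 ± 6.84, 60.2 ± 13.9 and 53.3 ± 5.14 CPM, and Mrc1 at 31.7 ± 2.99, 26.9 ± 3.42, 25.1 ± 7.12 and 26.6 ± 2.92 CPM, in WT (vehicle, tunicamycin) and LKO (vehicle, tunicamycin).

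The pathway around Kdr was read from 14 genes of the growth factors, receptors and angiopoietins, of which 9 were tested and 0 called in any contrast. Vegfa, the ligand of KDR and largely made by hepatocytes, was at 28.5 ± 3.75 CPM in WT vehicle, 22.5 ± 0.867 CPM in WT tunicamycin, 26.1 ± 6.52 CPM in LKO vehicle and 26.4 ± 4.42 CPM in LKO tunicamycin. Nrp1, a co-receptor of KDR, was at 36.1 ± 4.05, 47.2 ± 9.74, 37.4 ± 10.5 and 51.9 ± 13.3 CPM in the same order.

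The pathway around Eng was read from 19 genes of ligands, receptors, SMAD proteins and ID targets, of which 15 were tested and 0 called. The most abundant were the type II receptor gene Bmpr2, at 54.2 ± 0.819, 49.4 ± 1.87, 51.7 ± 7.59 and 47.0 ± 4.74 CPM, and Bmpr1a, at 17.9 ± 0.381, 17.5 ± 2.44, 17.2 ± 1.45 and 18.5 ± 1.10 CPM, in the same order of groups. The lowest adjusted p of this list was 0.0936 by edgeR, for LKO against WT after tunicamycin. Without WT tunicamycin 3, Id2 was called after tunicamycin in WT and for LKO against WT after tunicamycin, and without LKO vehicle 3+4, Id3 was called in the latter contrast. Both encode ID proteins.

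Of 8 genes of signals from endothelium to hepatocytes, 4 were tested and 0 called, among them Bmp2 at 8.61 ± 0.846, 7.47 ± 1.30, 6.55 ± 2.99 and 6.18 ± 1.04 CPM. Hgf, the hepatocyte growth factor, which stellate cells also make, was at 5.20 ± 0.281, 7.24 ± 2.11, 5.68 ± 0.644 and 7.54 ± 1.04 CPM. Of 6 Fc receptor genes, Fcgr2b included, 4 were tested and 0 called. Fcgrt, which encodes the neonatal Fc receptor that recycles IgG and albumin, was at 17.8 ± 0.616, 17.7 ± 1.89, 15.1 ± 1.82 and 13.9 ± 1.52 CPM. Leaving out each of the 13 samples in turn gave 0 called genes in these 2 lists, in the list around Kdr and in that of other endothelial genes.

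Genes of Kupffer cells and of stellate cells shared a sign in some comparisons without passing the test after adjustment. All 12 Kupffer cell genes were above 0 in log2 fold change after tunicamycin in WT (median 0.24) and in LKO (median 0.50), and 0 were called, where 51.7% and 50.8% of all genes were above 0. By edgeR, 0 of the 12 had an unadjusted p under 0.05 in WT and 7 in LKO, where 14.8% and 12.2% of all genes did. Their summed level was 70.1 to 83.4 CPM in WT vehicle, 75.5 to 104 CPM in WT tunicamycin, 50.9 to 87.8 CPM in LKO vehicle and 78.8 to 154 CPM in LKO tunicamycin. Of 11 tested stellate cell genes, 11 were above 0 for LKO against WT with vehicle (median 0.42) and 10 after tunicamycin (median 0.54), and 0 were called, where 50.9% and 48% of all genes were above 0. By edgeR, 5 and 4 of these stellate cell genes had an unadjusted p under 0.05, where 8.15% and 15.8% of all genes did. Their lowest adjusted p was 0.0545 and 0.0603 by edgeR. Their summed level was 83.9 to 134 CPM in WT vehicle, 112 to 153 CPM in WT tunicamycin, 141 to 194 CPM in LKO vehicle and 126 to 206 CPM in LKO tunicamycin. With each sample left out in turn, 7 to 12 Kupffer cell genes were above 0 after tunicamycin in WT (medians 0.07 to 0.37), the 7 without WT vehicle 2. Over the same 13 fits, 8 to 12 stellate cell genes were above 0 for LKO against WT with vehicle (medians 0.22 to 0.62), the 8 without WT vehicle 1. In that contrast the collagen gene Col1a2 was called in 4 of the 13 fits, those without WT tunicamycin 2 or 3 or LKO tunicamycin 1 or 3, Col1a1 in 3 and Col3a1 in 1. After tunicamycin, LKO against WT, Col1a2 was called in 3 fits, and Col1a1, Col3a1 and the Kupffer cell gene Marco in 1 each. Whether the endothelial genes differed from these lists was not tested, and the part of other cells in the endothelial values was not tested. Lyve1 and Fcgr2b are also read from macrophages. In LKO vehicle 1, Lyve1 was highest, from 76 reads, and the Kupffer list was lowest, at 50.9 CPM. That is a single sample, and a link between the values was not tested.

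**Figure D4:**
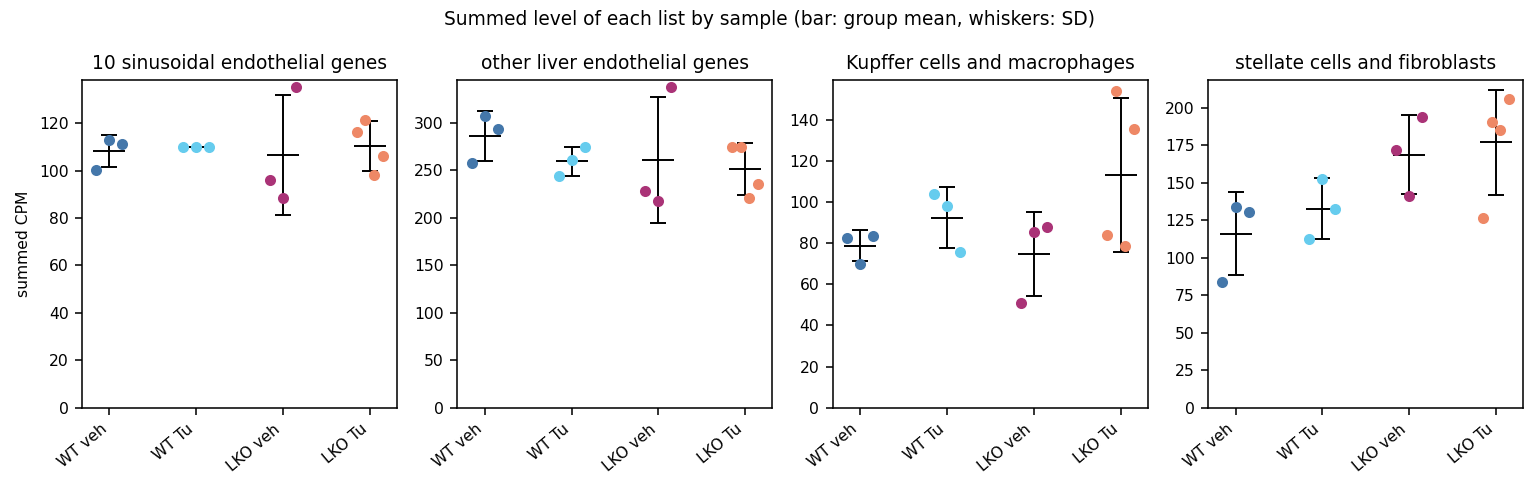
Summed level (CPM, vertical axis from 0) of the 10 sinusoidal endothelial genes and of 3 other lists in every sample of the 4 groups; points are samples, bars are means and whiskers are SD. The endothelial sum has means of 107 to 110.3 CPM in all 4 groups, while the stellate cell sum runs from 83.9 to 134 CPM in WT vehicle and from 141 to 194 CPM in LKO vehicle.

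Of the other lists, that of hepatocytes had Alb with group means of 13183 to 15511 CPM and held 1 called gene, Hnf4a, a hepatocyte transcription factor, at 119 ± 3.37 CPM in LKO against 173 ± 9.33 CPM in WT after tunicamycin (log2 fold change -0.54 ± 0.12, adjusted p = 0.0405, edgeR). Bile duct and leukocyte lists had 2 of 6 and 3 of 11 genes tested and 0 called, with summed levels of 8.49 to 111 CPM and 3.59 to 13.2 CPM over all samples. Hnf4a was called in 4 of the 13 fits that leave out 1 sample, those without WT tunicamycin 3 or 1 of the LKO vehicle samples. Without WT tunicamycin 3, genes called after tunicamycin in WT were Cps1, Fgb and Trf of the hepatocyte list, Spp1 of the bile duct list, and S100a8 and S100a9 of the leukocyte list; S100a9 was also called in LKO.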

How the data were processed

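Liver RNA, given as polyadenylated RNA per the labels, was sequenced in 14 libraries. The authors deposited whole-read counts per gene in 3 columns by strand, with the row layout of STAR per the file headers, and FPKM values with the column names of Cufflinks tables per the file headers. The submitters' processing notes name Trimmomatic, STAR, Cufflinks and mm10, and versions are not given in the sources used here. The column of reads on the gene's own strand was used, which held 99.5 to 99.6% of stranded reads. The labels put each library in its group by title, genotype and treatment. In the deposited FPKM table, 277 names that had several entries were not used, and 0 per-sample columns were unused.

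Counts were fitted with edgeR 4.0.16 (R 4.3.3), with TMM library sizes, the filterByExpr filter by group, 1 mean per group, 9 residual degrees of freedom, and Benjamini-Hochberg adjustment over 9644 genes. SE values were derived from the quasi-likelihood F statistic. Non-gene rows stayed out of library sizes. Alternatives used DESeq2 1.42.0 and limma 3.58.1 on log2(FPKM + 1) and log2(FPKM + 0.1). The fit was tested on simulated data. The method for log2 CPM used a prior count of 2. Reads carry no molecular identifiers, so they are not independent molecules and counting error alone is too small.

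The 10 genes and the lists were chosen with earlier results of these data known. All 10 are named in each comparison, with values for the 3 of smallest p. From other lists, called genes or the 2 of highest mean log2 CPM are named (Prox1, Ccl21a, Pdpn and Fcgr3 were added for markers and sequence). Shared replicate numbers were not used to pair the samples in the main fit, and the check is given with the alternatives.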

Additional observations from a re-analysis of the deposited data

How the results depend on the processing

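Of the 10 endothelial genes, 0 were called in every one of the 25 alternative fits of each comparison between groups and the 24 of the interaction. These were 14 libraries kept apart, DESeq2 size factors, total count scaling, DESeq2, no filter, strand ignored, Rn45s and Lars2 left out, the replicate block, only the 2 groups compared (not for the interaction), 3 limma fits on FPKM, and each of 13 samples left out. The lowest adjusted p of any of the 10 was 0.336 and 0.444 for tunicamycin in WT and LKO, 0.158 for LKO against WT with vehicle, 0.508 for the same contrast after tunicamycin, and 0.794 for the interaction. The signs of small differences were less firm: 22, 30, 14 and 23 of 246 alternative values in the 4 comparisons, and 36 of 236 in the interaction, had the other sign. For LKO against WT after tunicamycin, the Eng difference turned under total count scaling and on FPKM. So did that of Kdr, the only other sign given gene by gene that turned: it became 0.0172 under total count scaling, 0.00978 on log2(FPKM + 1) with no filter and with a mean FPKM of at least 1, and 0.0236 on log2(FPKM + 0.1). The cause was not tested. Total count scaling also moved the median of all genes from 0.01 to -0.18 for tunicamycin in WT and from -0.01 to 0.14 for LKO against WT after tunicamycin. A minimum mean FPKM of 1 left Stab1, Stab2, Lyve1 and Pecam1 without a value. For tunicamycin in WT, 1 fit gave no adjusted p for Lyve1. For tunicamycin in LKO, Lyve1, Clec4g, Pecam1 and Oit3 each lacked an adjusted p in 1 fit. A gene without an adjusted p could not be called in that fit.

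With Rn45s and Lars2 left out of the library sizes, the summed level became 472, 477, 465 and 482 CPM in WT (vehicle, tunicamycin) and LKO (vehicle, tunicamycin), since the library sizes are then smaller. The sum in WT tunicamycin, whose 3 samples lie within 0.0954 CPM (SD), was 109.8 CPM with DESeq2 size factors, 100.2 with total count scaling, 109.4 with strand ignored, and 108.6 to 111.5 when single samples were left out (109.7 without LKO vehicle 3+4).

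The labels give the groups the same replicate numbers. The deviations of samples with the same number had correlations of -0.12 to 0.12 over 12 pairs of samples, 1 of them over 0.1. The main fit therefore did not pair the samples by number. So few samples cannot exclude a link between those that share a number. With the replicate block, 0 of the 10 genes were called in each comparison, and the Clec4g difference for LKO against WT with vehicle was -0.50 (adjusted p = 0.595, edgeR).

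Counts over all genes, and the shares set beside the 10 genes, moved more. Without a filter on low counts, 289, 153, 84 and 261 genes were called in the 4 comparisons, against 35, 3, 4 and 83, and DESeq2 called 152, 34, 17 and 137. When single samples were left out, the counts ran from 0 to 615 (615 without WT tunicamycin 3), 0 to 67, 0 to 17 and 0 to 183, and from 0 to 2 for the interaction. Depth limits Lyve1 most, with 13 to 76 reads per sample.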
